A study of Mus musculus with 6 samples.

Results

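The miR-30 family is a group of microRNAs (miRNAs), short RNAs that guide silencing complexes to mRNAs and repress them. Its members were the 5p arms mmu-miR-30a-5p, mmu-miR-30b-5p, mmu-miR-30c-5p, mmu-miR-30d-5p and mmu-miR-30e-5p and the 3p arms mmu-miR-30a-3p, mmu-miR-30c-2-3p, mmu-miR-30d-3p and mmu-miR-30e-3p, picked by name, and all 9 were found among the 2009 names of the deposited mouse miRNA table (the species prefix is left out from here on). The 6 libraries came from male mouse hearts, 3 with ischemia and reperfusion (I/R) and 3 sham. All hearts were isolated and perfused on a Langendorff system, in which fluid reaches the heart through the aorta. I/R hearts were stopped with a Tomas cardioplegia solution for 30 min and then reperfused for 1 h, while sham hearts were perfused without arrest. The labels name no strain, age, genotype or further agent. They number the libraries of each group 1 to 3 as biological replicates and do not state pooling, so each library is called 1 heart here. All hearts were studied outside the body.

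A miRNA hairpin is cut into a duplex of a 5p and a 3p strand, of which one is usually loaded into the silencing complex and the other is mostly degraded. Bases 2 to 8, the seed, largely set which mRNAs are bound. miR-30 miRNAs are abundant in heart muscle, where connective tissue growth factor is a known target, and work in cardiac muscle cells has linked the family to mitochondrial fission and autophagy. These roles are background and were not measured here.

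Mature sequences of 6 of the 9 members were found in RefSeq (GRCm38.p6), and none is shown for miR-30b-5p, miR-30d-5p or miR-30d-3p. They are given here because the family is defined by its 5p seed and because some pairs of members differ by a single base. Capitals mark the seed, and each sequence runs 5′ to 3′.
miR-30a-5p: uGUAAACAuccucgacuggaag
miR-30e-5p: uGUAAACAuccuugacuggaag
miR-30c-5p: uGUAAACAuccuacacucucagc
miR-30a-3p: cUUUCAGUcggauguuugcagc
miR-30e-3p: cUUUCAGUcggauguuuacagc
miR-30c-2-3p: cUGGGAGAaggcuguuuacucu
The 3 members of the 5p arm with a sequence shared 1 seed, whereas the 3p arms fell into 2 seeds, one for miR-30a-3p and miR-30e-3p and one for miR-30c-2-3p. Counted from 1 at the 5′ end, miR-30a-5p and miR-30e-5p differed by the single substitution C13U, and miR-30a-3p and miR-30e-3p by G18A. Reads that carry a mismatch at such a base can move between these names, and how mismatches were treated is not given in the sources used here. The values of these members are therefore uncertain taken singly.

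The hairpins lie in 3 clusters of the mouse genome (GRCm38, GENCODE M21). Mir30a (chr1:23272269-23272339) and Mir30c-2 (chr1:23291701-23291784) lie on the plus strand of chromosome 1, 19361 bases apart, Mir30a outside annotated genes and Mir30c-2 in an exon of the noncoding gene Gm27028. Mir30e (chr4:120772606-120772697) and Mir30c-1 (chr4:120769534-120769622) lie 2983 bases apart on the minus strand of chromosome 4, both in introns of Nfyc, which encodes a subunit of a CCAAT-binding transcription factor. Mir30d (chr15:68341208-68341289), in an exon of the noncoding gene Gm20732, and Mir30b (chr15:68337415-68337510), outside annotated genes, lie 3697 bases apart on the minus strand of chromosome 15. The sequence of miR-30c-5p is the same in Mir30c-1 and Mir30c-2, so its reads cannot be assigned to either, while the 3p arms of those hairpins carry names of their own. Both hairpins are given here with the mature arms in capitals, first the 5p and then the 3p arm.
Mir30c-2: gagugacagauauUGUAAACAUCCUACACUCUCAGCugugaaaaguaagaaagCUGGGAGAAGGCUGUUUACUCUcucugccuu
Mir30c-1: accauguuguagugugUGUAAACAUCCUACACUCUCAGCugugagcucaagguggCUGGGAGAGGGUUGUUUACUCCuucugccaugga
The 3p arms differed by A9G, C12U and U22C, with miR-30c-2-3p given first and positions counted from the 5′ end of the mature arm.

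Levels are given in reads per 1000000 reads on listed miRNAs (RPM). Recovered depth was 7874103 to 8196102 reads in I/R libraries and 8099411 to 9197869 reads in sham libraries, so that 3 reads stood for 0.326 to 0.381 RPM. The 4 heart muscle miRNAs used to check the tissue (miR-1a-3p, miR-133a-3p, miR-208a-3p and miR-499-5p) were all detected and together held 357828 to 383230 RPM in I/R hearts and 385458 to 389856 RPM in sham hearts. Markers of endothelium, smooth muscle and fibroblasts were all 2 of 2 detected, with summed levels of 25829 to 31830, 41127 to 49773 and 1624 to 1922 RPM in I/R hearts and 24893 to 27478, 35566 to 46739 and 1216 to 1620 RPM in sham hearts. Red blood cell markers summed to 1.52 to 5.26 RPM in I/R hearts and 3.33 to 6.85 RPM in sham hearts, and leukocyte markers to 107 to 111 RPM and 100.02 to 133.3 RPM. The liver marker miR-122-5p was at 3.67 to 4.32 RPM in I/R hearts and 3.05 to 3.58 RPM in sham hearts, and epithelial markers summed to 11.9 to 12.4 RPM and 8.82 to 12.9 RPM. Among these lists the groups did not overlap for heart muscle, lower in I/R, and for fibroblast and liver, higher in I/R. Of the 409 single names kept for testing, 16 (3.91%) lay wholly below sham and 46 (11.2%) wholly above. For fibroblast the lowest I/R sum was 1624 RPM and the highest sham sum 1620 RPM, and the liver list was 1 low name. Of the 2 brain markers, miR-124-3p was at 0 in all 6 libraries, so that the sum of 90.8 to 145.8 RPM in I/R hearts and 81.1 to 131.9 RPM in sham hearts came from miR-9-5p.

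The 5 members of the 5p arm differed widely in level in the same hearts. miR-30d-5p, the most abundant member, ranked 8 of 2009 names and was at 20029.5, 20947 and 20308 RPM in I/R replicates 1 to 3, against 23519.6, 19907 and 20889 RPM in sham replicates 1 to 3. Sham replicate 1 was the highest of the 6 libraries, and the groups overlapped. miR-30a-5p, which ranked 9, was at 18673, 20343 and 18943 RPM in I/R hearts, against 18501, 19946 and 19959.8 RPM in sham hearts, again with overlap. miR-30d-5p lay above miR-30a-5p in 5 of 6 libraries, by a ratio of 0.998 to 1.27, and their ranges overlapped, so these neighbours in the order did not differ beyond their spread.

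miR-30c-5p followed with 3778, 4059 and 3553 RPM in I/R hearts, against 3905, 3315 and 4079.8 RPM in sham hearts. miR-30e-5p was at 1744, 1726 and 1592 RPM in I/R hearts, against 1813, 1818 and 1908 RPM in sham hearts. All 3 I/R hearts lay below all 3 sham hearts for miR-30e-5p, the one member of 9 with that separation, which 16 of the 409 names tested (3.91%) showed, while the groups overlapped for miR-30c-5p. The order miR-30a-5p, miR-30c-5p, miR-30e-5p held in 6 of 6 libraries, with miR-30a-5p at 4.74 to 6.02 times miR-30c-5p and miR-30c-5p at 1.82 to 2.35 times miR-30e-5p.

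miR-30b-5p stood far below the other 5p members. It was at 51.0, 68.0 and 40.6 RPM in I/R hearts, from 320 to 556 reads, and at 56.5, 77.5 and 60.4 RPM in sham hearts, from 489 to 686 reads. Replicate 2 was the highest library in both groups, and the groups overlapped. miR-30d-5p, from the same cluster on chromosome 15, was 257 to 499.7-fold higher than miR-30b-5p within a library, and miR-30e-5p was 23.4 to 39.2-fold higher. miR-30b-5p also varied most, with a coefficient of variation of 26.0% in I/R and 17.3% in sham hearts, against 4.48% from read counting alone.

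**Figure D1:**
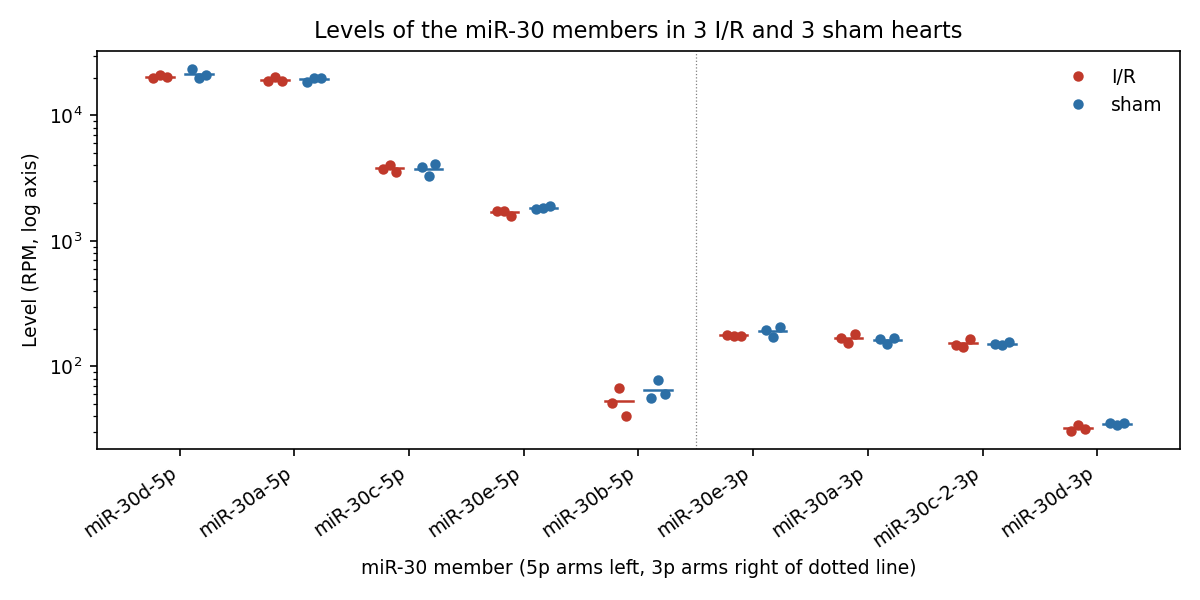
Level of each miR-30 member in RPM on a log axis, with 1 point per heart, I/R in red to the left of sham in blue, and a bar at the group mean. miR-30d-5p and miR-30a-5p lie between 18501 and 23519.6 RPM, miR-30b-5p between 40.6 and 77.5 RPM, and the 3p members between 30.7 and 205 RPM.

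Of the reads on the 5p members, miR-30a-5p and miR-30d-5p together held 87.8 ± 0.49% in I/R and 87.8 ± 0.67% in sham hearts (SD, n = 3 each). miR-30d-5p held 45.1 ± 0.64% in I/R and 46.0 ± 2.81% in sham hearts, and miR-30a-5p 42.7 ± 0.49% and 41.8 ± 2.85%. Sham replicate 1, with 49.2% miR-30d-5p and 38.7% miR-30a-5p, stood apart from the other 5 libraries, which had 44.2% to 45.7% and 42.2% to 44.3%. miR-30c-5p held 8.38 ± 0.33% in I/R and 8.08 ± 0.68% in sham hearts, miR-30e-5p 3.73 ± 0.19% and 3.97 ± 0.15%, and miR-30b-5p 0.117 ± 0.026% and 0.140 ± 0.029%. All 9 members together held 4.58 ± 0.16% of all reads in I/R hearts and 4.71 ± 0.14% in sham hearts, a difference smaller than the spread between hearts.

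**Figure D2:**
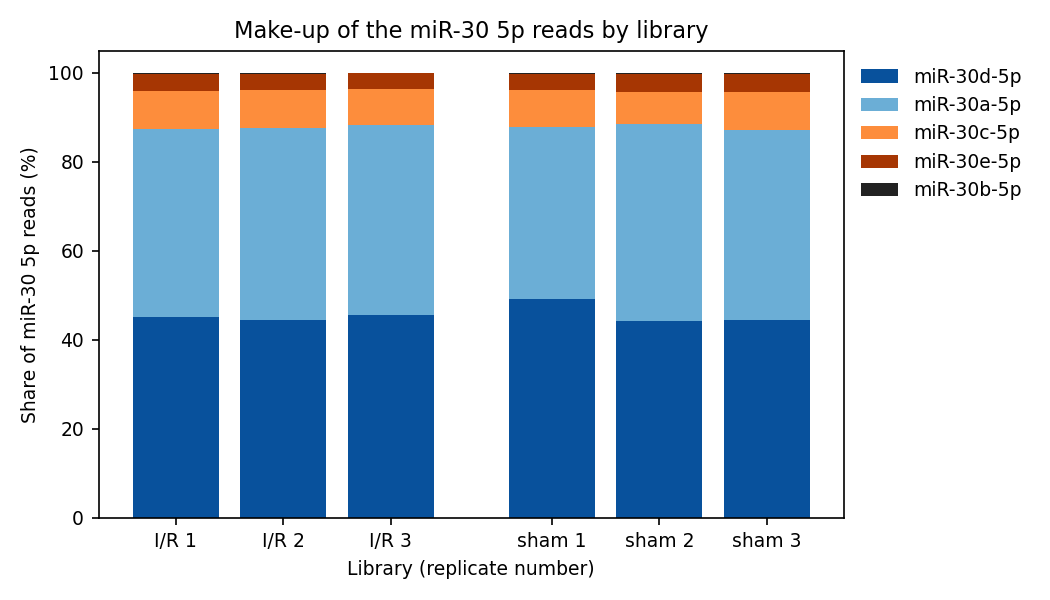
Share of each 5p member in the summed miR-30 5p reads, in percent, as stacked bars for the 3 I/R libraries and then the 3 sham libraries. miR-30d-5p and miR-30a-5p make up 87.1% to 88.4% of each bar, and sham replicate 1 has the highest share of miR-30d-5p, 49.2%.

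Each 3p member with a 5p partner was scarcer than that partner, and 3 of the 4 lay close together as listed, above the level of miR-30b-5p. miR-30e-3p was at 179, 176 and 175 RPM in I/R hearts, against 195, 172 and 205 RPM in sham hearts. miR-30a-3p was at 169.6, 154 and 181 RPM in I/R hearts, against 166, 149.9 and 168 RPM in sham hearts. miR-30c-2-3p was at 149, 143 and 166 RPM in I/R hearts, against 152, 147 and 157 RPM in sham hearts. The groups overlapped for each of these 3 members. The range of miR-30a-3p overlapped those of miR-30e-3p and miR-30c-2-3p, although miR-30a-3p lay above miR-30c-2-3p in 6 of 6 libraries, whereas miR-30e-3p lay wholly above miR-30c-2-3p, by a ratio of 1.06 to 1.31. These levels of miR-30e-3p leave out the reads listed as miR-30f, a name on the opposite strand treated below. With both names summed, the level was 1.97 to 2.37 times that of miR-30a-3p. miR-30d-3p was lower, at 30.7, 34.4 and 31.5 RPM in I/R hearts from 248 to 281 reads, against 35.6, 33.9 and 35.3 RPM in sham hearts from 286 to 327 reads. Its coefficients of variation, 5.92% in I/R and 2.54% in sham hearts, did not exceed the 5.95% that read counting gives, so its spread between hearts was not above counting error.

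The 3p names of the family outside the 9 members were also low. miR-30b-3p averaged 44.3 ± 6.58 RPM in I/R and 49.1 ± 5.39 RPM in sham hearts, and miR-30c-1-3p 13.6 ± 0.36 and 14.4 ± 1.04 RPM (SD, n = 3 each). miR-30c-2-3p was 9.76 to 12.1-fold higher than miR-30c-1-3p in every library. Within the chromosome 1 cluster, miR-30a-3p and miR-30c-2-3p were nearly level, with a ratio of 1.02 to 1.14, whereas in the chromosome 4 cluster miR-30e-3p was 12.5 to 14.8-fold higher than miR-30c-1-3p. A search of 1679 names with a mature sequence in RefSeq for the same seeds found 2 names outside the family. miR-384-5p, with the 5p seed, had at most 1 read, and miR-6958-5p, with the seed of miR-30c-2-3p, at most 2 reads in any library.

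The 5p arm was the more abundant one in every library and precursor of the family. The ratio of 5p to 3p was 635 ± 22.5 in I/R and 613 ± 41.8 in sham hearts for miR-30d, and 116 ± 14.5 and 121 ± 10.9 for miR-30a (SD, n = 3 each). It was 25.0 ± 3.47 in I/R and 24.8 ± 1.94 in sham hearts for miR-30c-2, whose 5p name also takes the reads of Mir30c-1, and 9.53 ± 0.38 and 9.73 ± 0.70 for miR-30e. For miR-30e the reads listed as miR-30f, treated below, are left out of the 3p arm. miR-30b was nearly balanced, with 1.19 ± 0.13 in I/R and 1.35 ± 0.40 in sham hearts. Over all 112 pairs of arms in the table, 74 favoured the 5p arm and the median log2 ratio was 0.64. On the log2 scale miR-30d averaged 9.24, with 5 of 112 pairs above it, miR-30a 6.87 with 12 above it, and miR-30b 0.31 with 64 above it. The members of the chromosome 15 cluster thus stood at opposite ends of the family.

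Arm balance was tested between I/R and sham with limma on the log2 ratio over all 112 pairs, with Benjamini-Hochberg adjustment. None of the 4 member precursors passed, and 0 of all 112 pairs (0%) did, with 7 of all pairs (6.25%) at an unadjusted p under 0.05. With the replicate number as a block 0 of 112 pairs (0%) passed. For miR-30a the log2 ratio was 6.77, 7.04 and 6.70 in I/R hearts, against 6.79, 7.05 and 6.88 in sham hearts, a change of -0.071 (SE 0.15, limma adjusted p = 0.968). The changes were 0.049 for miR-30d (95% interval -0.22 to 0.31), -0.028 for miR-30e (-0.33 to 0.27) and 0.0087 for miR-30c-2 (-0.36 to 0.37), each with a limma adjusted p of 0.968. In all 4 precursors the groups overlapped, while of the 112 pairs 6 (5.36%) had I/R ratios wholly above and 6 (5.36%) wholly below sham. No interval of the 4 reached below -0.42 or above 0.37.

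**Figure D3:**
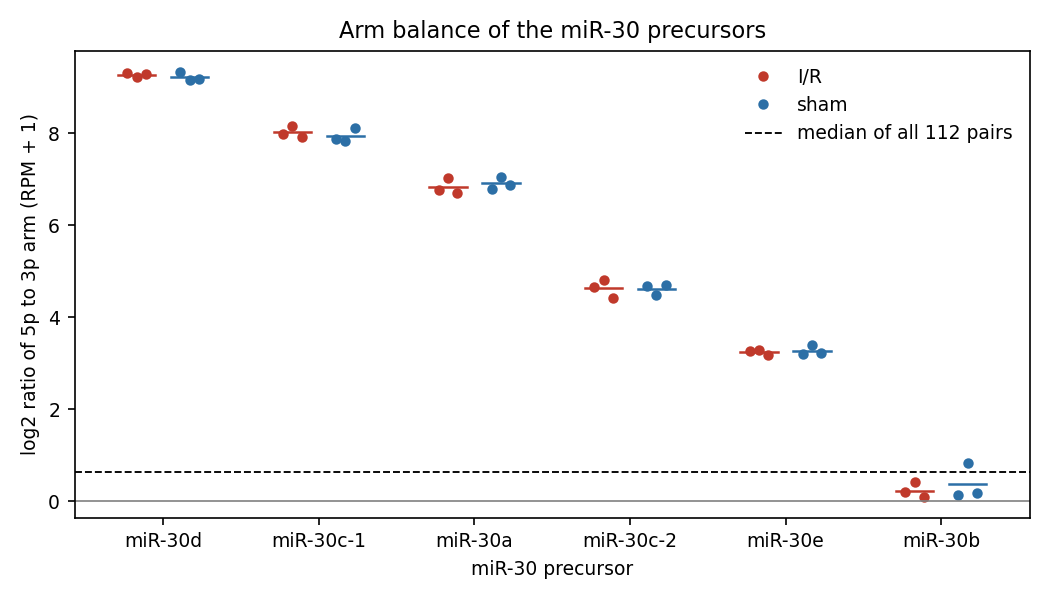
5p over 3p, as a log2 ratio of RPM + 1, for the 6 precursors of the family, with 1 point per heart, I/R in red left of sham in blue, bars at group means, and a dashed line at the median of all 112 pairs, 0.64. miR-30d lies near 9.24 and miR-30b near 0.31, and the groups overlap in each precursor.

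The 3p arm of Mir30e shares its place in the genome with another listed miRNA. miR-30f is annotated at chr4:120772621-120772642 on the plus strand, opposite to miR-30e-3p at chr4:120772618-120772639 on the minus strand. Its sequence is shown because the 19 bases in capitals are the reverse complement of miR-30e-3p.
miR-30f: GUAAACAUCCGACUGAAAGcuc
The listed reads were nearly equal, with 1471, 1443 and 1380 reads for miR-30e-3p and 1478, 1470 and 1425 for miR-30f in I/R hearts. In sham hearts they were 1790, 1526 and 1658 reads for miR-30e-3p and 1717, 1536 and 1563 for miR-30f. Over all libraries miR-30e-3p held 50.2% of the sum (95% Wilson interval 49.5% to 50.9%). Its share differed between libraries by no more than sampling noise, with a chi-square of 1.00 per degree of freedom. Of 270 names of at least 5 RPM set against miR-30e-3p in this way, miR-30f ranked 10 from the smallest chi-square. A share this steady was thus not particular to miR-30f. Whether strand was used in counting is not given in the sources used here, and without strand the reads of these 2 names cannot be told apart. With both names summed, the 3p arm of miR-30e was at 357 ± 2.07 RPM in I/R and 375 ± 26.4 RPM in sham hearts, and the ratio of 5p to 3p was 4.72 in I/R and 4.94 in sham hearts, against 9.53 and 9.73 above.

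**Figure D4:**
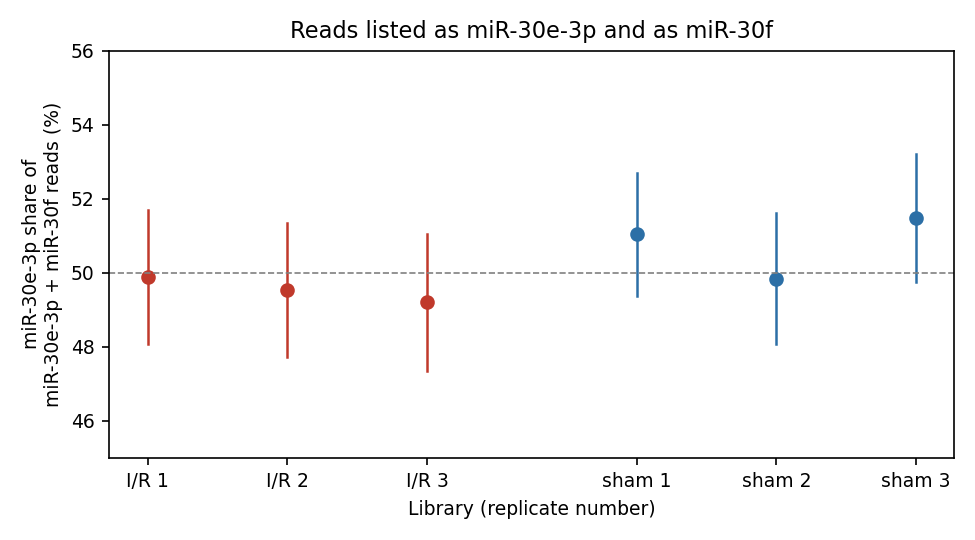
Share of miR-30e-3p in the summed reads of miR-30e-3p and miR-30f, in percent, for each library, with 95% Wilson intervals and a dashed line at an equal split. The vertical axis does not start at 0, and every interval includes 50%.

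The comparison of I/R with sham hearts asked which miRNAs differ after arrest and reperfusion. None of the 9 members passed the test in either direction, on log2(RPM + 1) with limma over 409 names and Benjamini-Hochberg adjustment, where 0 of 409 names (0%) passed in all. No member reached an unadjusted p under 0.05, which 30 of 409 names (7.33%) did. With the replicate number as a block limma called 4 of 409 names (0.978%) and again none of the members. In edgeR 0 of 409 (0%) passed and 26 (6.36%) had an unadjusted p under 0.05, and DESeq2 called 2 of 409 (0.489%), none of them a member. In these bulk samples, fewer cells of a type and less RNA per cell cannot be told apart.

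miR-30e-5p, an intron product of Nfyc, averaged 1688 ± 82.9 RPM in I/R and 1846 ± 53.4 RPM in sham hearts (SD, n = 3 each). Its log2 fold change was -0.13 (95% interval -0.32 to 0.056, limma adjusted p = 0.661). That it was lower in the I/R heart in 3 of 3 replicate numbers follows from the separation of the groups given above. miR-30b-5p had the largest value, -0.30, with a wide interval of -0.76 to 0.16 (limma adjusted p = 0.661) around 53.2 ± 13.8 RPM in I/R and 64.8 ± 11.2 RPM in sham hearts. miR-30b-5p was also lower in the I/R heart in 3 of 3 replicate numbers, but the share of all names with that pattern was not counted.

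miR-30a-5p and miR-30d-5p, the most abundant members, had the narrowest intervals of the 9. miR-30a-5p averaged 19319 ± 897 RPM in I/R and 19469 ± 838 RPM in sham hearts, a log2 fold change of -0.011 with an interval of -0.16 to 0.14, or 0.896 to 1.10-fold. miR-30d-5p averaged 20428 ± 470 RPM in I/R and 21439 ± 1868 RPM in sham hearts (-0.066, interval -0.23 to 0.10), and without sham replicate 1 its value was 0.0023. miR-30c-5p averaged 3797 ± 253 RPM in I/R and 3767 ± 401 RPM in sham hearts (0.015, interval -0.21 to 0.24). The limma adjusted p was 0.964 for miR-30a-5p, 0.792 for miR-30d-5p and 0.968 for miR-30c-5p.

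The 3p members gave values of the same size. The log2 fold changes were -0.11 for miR-30d-3p (interval -0.39 to 0.16), -0.10 for miR-30e-3p (-0.35 to 0.15), 0.060 for miR-30a-3p (-0.20 to 0.32) and 0.0064 for miR-30c-2-3p (-0.25 to 0.26), with limma adjusted p of 0.792 to 0.984. The 95% interval of each of the 9 members excluded both a doubling (2-fold) and a fall of that size, as did those of 373 of 409 names (91.2%). The median standard error of the members was 0.11, against 0.18 for all names. For miR-30e-3p summed with miR-30f the log2 fold change was -0.067 (SE 0.10, limma adjusted p = 0.813).

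The members' values were set beside those of all names. Of the 9 members 6 had negative and 3 positive log2 fold changes with a median of -0.066, while of all 409 names 122 were negative and 287 positive with a median of 0.10. All 9 lay below the median of all names. Members were chosen with earlier results of these data known, so for all 9 this placement is a description only. With median-ratio scaling, TMM scaling or totals without the 10 most abundant names, the median of all names shifted by -0.092, -0.11 and -0.066, and 195, 211 and 172 of all 409 names were negative. All 9 members were negative under each of the 3, as a scaling moves all names alike, so the sign for miR-30c-5p, miR-30a-3p and miR-30c-2-3p depended on the scaling. The summed heart muscle markers were lower in I/R and the fibroblast and liver markers higher, at the levels given above. The heart muscle sum was mostly miR-1a-3p (mean log2 level 18.5, against 12.5 for miR-499-5p, the next of that list). By name the log2 fold changes were -0.059 for miR-1a-3p, -0.36 for miR-133a-3p, -0.10 for miR-208a-3p and 0.018 for miR-499-5p. The part of these markers in the members' values was not tested.

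**Figure D5:**
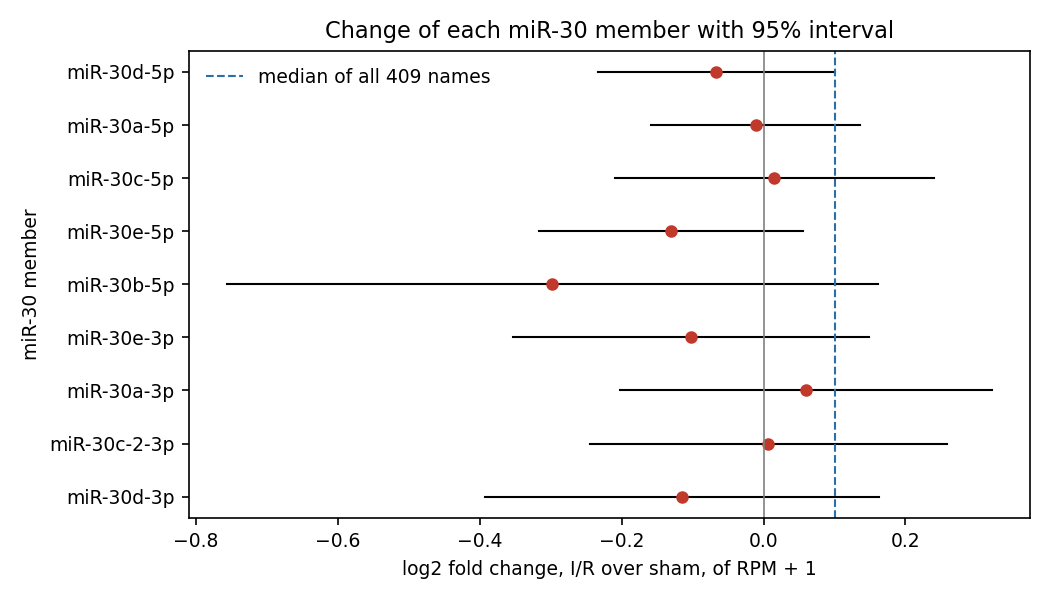
Log2 fold change of RPM + 1, I/R over sham, for each member with its 95% limma interval, a solid line at 0 and a dashed line at the median of all 409 names, 0.10. Every interval includes 0, and every point lies left of the dashed line on the deposited scale.

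The medians of the comparison lists, let-7, miR-29 and muscle miRNAs, were also negative. The let-7 family had 6 of 9 negative values and a median of -0.077, the miR-29 family 3 of 3 and -0.091, and the muscle miRNAs 6 of 7 and -0.10. Under the 3 other scalings these medians were -0.19 to -0.15, -0.20 to -0.16 and -0.22 to -0.17, against -0.18 to -0.14 for the miR-30 members. None of their members passed in limma, and 2 of 9, 0 of 3 and 1 of 7 had I/R levels wholly below sham, against 1 of 9 for miR-30 and 16 of 409 names (3.91%) in all. None of the members of these lists had I/R levels wholly above sham, as 46 of 409 names (11.2%) had. The difference between miR-30 and these lists was not tested.

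Ratios between members within a library, formed on RPM + 1, are almost free of the scaling of the libraries. Of the 36 ratios between 2 members, 4 (11.1%) had groups that did not overlap, against 11.3% of the 83436 ratios between any 2 of the 409 names, so this share was at the background. Of the 4, miR-30c-5p was 2.17, 2.35 and 2.23 times miR-30e-5p in I/R hearts, against 2.15, 1.82 and 2.14 times in sham hearts. miR-30e-3p was 1.06, 1.145 and 0.968 times miR-30a-3p in I/R hearts, against 1.17, 1.151 and 1.22 times in sham hearts. The others were miR-30a-5p to miR-30d-3p and miR-30c-5p to miR-30e-3p, and all 4 were picked out after their values were seen. With miR-30f added to miR-30e-3p the ratios were 2.12, 2.31 and 1.97 in I/R hearts and 2.30, 2.31 and 2.37 in sham hearts, with overlap.

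Across the 6 libraries the members did not move as one. Pearson's r of log2 levels over the 6 libraries, which share their totals and are given as a description, was -0.37 between miR-30a-5p and miR-30d-5p, 0.29 between miR-30a-5p and miR-30e-5p, and -0.017 between miR-30b-5p and miR-30d-5p of the same cluster. Between the arms of 1 hairpin it was -0.64 for miR-30a, 0.64 for miR-30d and 0.67 for miR-30e. The 3p arms of the chromosome 1 cluster, miR-30a-3p and miR-30c-2-3p, had an r of 0.86. For miR-30a-5p and miR-30c-5p, whose reads also come from chromosome 4, it was 0.11. Among all pairs of members the value furthest from 0 was -0.97, between miR-30b-5p and miR-30a-3p of different clusters. Outside the family, the names of at least 1000 RPM most like the summed 5p members were miR-10a-5p (r = 0.65), miR-99a-5p (0.63) and miR-26a-5p (0.57), out of 41 names compared over 6 libraries. miR-10a-5p, encoded in a Hox cluster, varied more between I/R hearts than any miR-30 member, with 1138, 4775 and 2348 RPM in I/R hearts, against 3251, 3438 and 2515 RPM in sham hearts.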

How the data were processed

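The authors' table holds 1 value per miRNA name and library. Its name calls the deposited values FPKM, but tested on the file they are a signal equal to whole reads times 1 factor for each library, which is RPM over a fixed length of 23.0 nt. The tools bcl2fastq 2.19.1.403 and fastp 0.23.0 and the genome build mm10 are named per the submitters' processing notes. Which aligner, annotation and strand option were used, and how reads with several matches were counted, is not given in the sources used here. Per the labels, libraries were made with poly(A) mRNA kits, while the sample titles speak of miRNA-seq. Division by each column's smallest value above 0 gave whole reads for 100% of the values, within 0.01 reads. Signal was rescaled to RPM. No source mentions molecular identifiers, so intervals and floors cover counting error only.

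Kept names had a mean of 1 RPM or more and were above 0 in 3 or more libraries, which left 409 of 2009, and all 9 members passed. I/R and sham were compared with limma 3.58.1 (R 4.3.3), fitted with a trend of variance on level, on log2(RPM + 1). Two-sided p-values were adjusted by Benjamini-Hochberg over all kept names, with a threshold of 0.05. Fold changes on this scale are too small for low miRNAs. The design was planned for FPKM, and its log-scale test was kept. Arm balance was tested alike on the log2 ratio of 5p to 3p in 112 pairs, of which 18 use a 5p name shared between loci. Both fits were tested on simulated reads. Alternatives were other pseudocounts, filters, scalings and limma fits, each library left out, edgeR 4.0.16 and DESeq2 1.42.0 on recovered reads, and the replicate number as a block.

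Members, comparison lists and tests were chosen with earlier results of these data known. The rule named all members, the other names from miR-30a to miR-30e, names with the 5p seed, and the 3 names of at least 1000 RPM with the highest r to the summed 5p members. miR-30f and miR-6958-5p were named after their values were seen. Libraries of the same replicate number deviated together from their group means, with correlations of 0.14, 0.28 and 0.16. For unlike numbers the correlations were -0.19 to 0.069. Deviations within a group sum to 0, so these values are not independent of one another. As each same-number value is above 0.1, the numbers were taken to pair the libraries in the block fits. That pairing was drawn from the same data as those fits, and no label ties a number to a common batch or day. Intervals and p-values of single members come from the fits without the block unless the block is named. Replicates are called biological in the labels, with no word on separate animals, so p-values measure the spread between these samples.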

Additional observations from a re-analysis of the deposited data

How the results depend on the processing

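No alternative called a member or a member precursor: the count was 0 under all 20 alternatives for levels and all 14 for arm balance. With the replicate number as a block (replicate block) the count of members called was likewise 0, and the limma adjusted p of miR-30b-5p was 0.375, within 0.210 to 0.950 over its alternatives. Over all alternatives the log2 fold change was -0.49 to -0.12 for miR-30b-5p, -0.25 to -0.089 for miR-30e-5p, -0.23 to -0.083 for miR-30d-3p and -0.22 to -0.049 for miR-30e-3p, with no change of sign.

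Values near 0 changed sign. With median-ratio scaling, TMM scaling, totals without the 10 most abundant names, edgeR, DESeq2 and edgeR with the block, miR-30c-5p was at -0.084, -0.0996, -0.056, -0.10, -0.086 and -0.0999, miR-30a-3p at -0.038, -0.054, -0.011, -0.057, -0.041 and -0.055, and miR-30c-2-3p at -0.092, -0.11, -0.064, -0.11, -0.093 and -0.11. With array weights miR-30c-5p was at -0.042, miR-30c-2-3p at -0.031, and the change of arm ratio at 0.0032 for miR-30a, 0.032 for miR-30b and 0.027 for miR-30e. The scalings act on all names alike, and for the other changes the cause was not tested. With each library left out in turn, the range was -0.049 to 0.013 for miR-30a-5p, -0.074 to 0.076 for miR-30c-5p, -0.12 to 0.0023 for miR-30d-5p, -0.055 to 0.051 for miR-30c-2-3p and -0.073 to 0.0026 for miR-30f, and for the arm ratio -0.27 to 0.076 for miR-30b, -0.085 to 0.12 for miR-30c-2 and -0.058 to 0.030 for miR-30e.

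The share of reads on the 9 members differed by -0.13 percentage points, and by -0.22 to -0.070 with each library left out. Relative to reads outside the 10 most abundant names, which include miR-30d-5p and miR-30a-5p, members stood at 24.1% in I/R and 26.0% in sham hearts, a difference of -1.93 points. The spread between hearts was not computed on this scale, so whether that difference exceeds it is not known here. edgeR with the block and the sum with miR-30f were chosen after seeing the data.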
